A study of Rattus norvegicus with 20 samples.

Results

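Liver mRNA of the Han/Wistar (*Kuopio*) rat (H/W), a parent strain that carries a variant of the aryl hydrocarbon receptor gene *Ahr*, was compared with that of Line-C (LnC), a line bred from crosses of Long-Evans (L-E) and H/W rats that carries wild-type *Ahr*. Each group had 4 rats, and each rat its own array, so 8 of the 20 arrays of the series carry the comparison. It was described across the 7168 of 15923 ProbeSets whose mean log2 signal over the 20 arrays was at least 4. A ProbeSet is the set of short probes on the Affymetrix RAE230A array that reads 1 transcript, and these are called expressed below. The closest ProbeSets inside this limit were those of *Nrap* and *Dnase2* (both 4.0), and just outside it lay that of *Ccdc107* (3.999).

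All rats were males 10 to 12 weeks old from 1 breeding facility, and by the study's methods all had been given corn oil by gavage 19 hours before the liver was taken, so no group is untreated and none received dioxin. H/W is a random-bred closed colony, L-E (*Turku/AB*) an inbred strain, and Sprague-Dawley (S-D) an outbred stock. Line-C and its sister Line-A (LnA) both descend from L-E×H/W crosses, and Line-A carries the variant *Ahr* as H/W does, whereas L-E and S-D carry the wild type. H/W and Line-C therefore differ in *Ahr* and in whatever else the crosses passed on, and these cannot be told apart in this pair alone. The other 3 groups serve below only to place the levels of H/W and Line-C.

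The AHR is a ligand-activated transcription factor. It binds dioxins and related compounds, moves to the nucleus, pairs with ARNT and binds DNA at sites with the core GCGTG, where it switches on enzymes of xenobiotic metabolism such as *Cyp1a1*. The H/W variant of the receptor is known for making rats resistant to much of the toxicity of dioxin. Hepatocytes, the main cells of the liver, make most plasma proteins, bile acids and cholesterol and carry most of the enzymes that clear drugs and steroids, and in rats many of these enzymes differ between the sexes and between strains.

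Array medians lay between 3.47 and 3.69 in all 20 arrays, and no 2 arrays held the same values. The 19 hepatocyte markers measured gave mean signals of 13.75 to 13.90 in H/W rats and 13.78 to 13.90 in Line-C rats, whereas markers of T cells such as *Cd3d* and *Cd3g* lay under 4. By the array headers, H/W was scanned on 3 days, 2 of which also held the 4 L-E arrays, and all Line-C and Line-A arrays were scanned together on another day with another chip lot. H/W and Line-C shared 0 scan days and 0 chip lots, so scan day and lot cannot be told apart from the group, and a fit with either as a random block, in which arrays of 1 day or lot are taken to vary together, was run beside the main fit. The 154 ProbeSets that lost their call without 1 rat, among them all those named below as such, also lost it with each block. For other named genes the blocks are given where a call was lost.

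Between H/W and Line-C, 263 expressed ProbeSets differed at a false-discovery rate (FDR) of 1% in limma, which is 3.67% of those tested. Of the 263, 219 had 1 gene symbol and read 205 genes. In H/W 132 (1.84%) were higher and 131 (1.83%) lower. The median size of a called difference was 0.76 on the log2 scale, or 1.69-fold, and 81 ProbeSets differed at least 2-fold, of which 54 were higher and 27 lower in H/W. At 5% FDR 598 ProbeSets passed (8.34%), of which 3.70% of those tested were higher and 4.65% lower in H/W, and at 0.1% FDR 81 passed (1.13%). At least 4-fold differences were found in 27 ProbeSets, with 19 higher and 8 lower. In 256 of the 263 the signals of the 4 H/W and the 4 Line-C rats did not overlap, against 13.7% of all expressed ProbeSets. The 263 had been chosen by a test of these same signals, so that this count only describes them. Over all expressed ProbeSets the median difference was -0.03, and the called share rose from 2.17% at mean signals of 4 to 8 to 6.09% at 8 to 12.

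**Figure D1:**
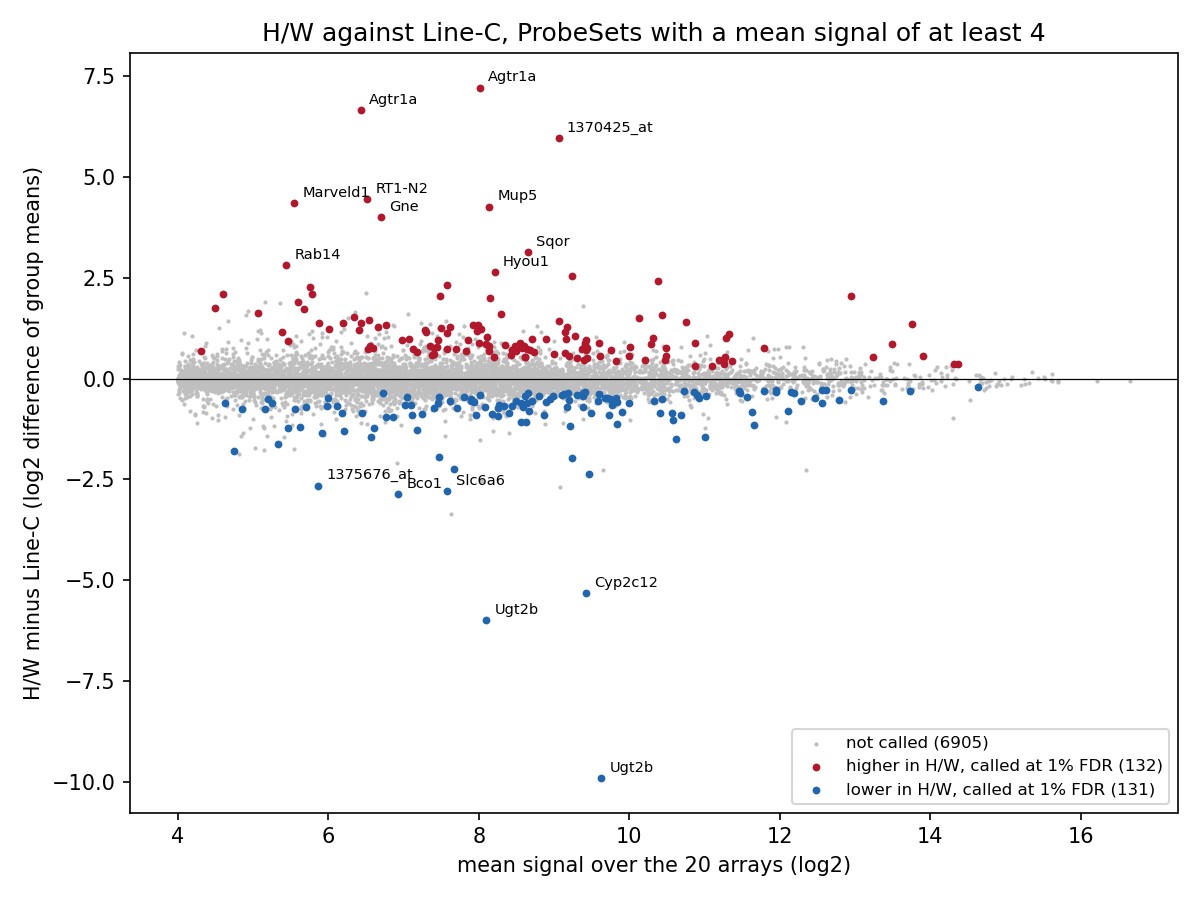
Difference between H/W and Line-C (vertical axis, log2) against the mean signal over the 20 arrays (horizontal axis, log2) for the 7168 expressed ProbeSets, with the 263 called at 1% FDR in colour. The ProbeSets farthest from 0 are those of *Ugt2b* (-9.91) on the lower and *Agtr1a* (7.22) on the higher side. Most called ProbeSets differ by less than 2-fold between H/W and Line-C.

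The number of calls depended on the technical terms. With scan day as a random block 79 ProbeSets passed, and with chip lot 43 (all of these were among the 263). Leaving out 1 rat gave 142 calls without H/W rat 1, 157 without H/W rat 2, 161 without Line-C rat 1, 150 without Line-C rat 2 and 153 without Line-C rat 3, whereas 362 passed without H/W rat 4. Without H/W rat 3 the count was 225, with 88 higher and 137 lower in H/W, and with array weights it was 238, with 91 higher and 147 lower, so that the split of directions moved with these settings. With the medians of all arrays set equal, 186 passed, 109 higher and 77 lower. In the fit of the 8 arrays alone 33 passed. No called ProbeSet changed sign under any of these settings. In every one of the 18 planned fits 28 ProbeSets passed, 16 higher and 12 lower in H/W. Those with a gene symbol read 23 genes, namely *Agtr1a*, *Marveld1*, *Mup5*, *Gne*, *Sqor*, *Hyou1*, *Retsat*, *Gstm4*, *Nfat5*, *Lss*, *Mlf2* and *Cyp2c6v1* on the higher side, and *Ugt2b*, *Cyp2c12*, *Bco1*, *Cd63*, *Dync1li1*, *Rab14*, *Ctnnb1*, *Galt*, *Stt3b*, *Mmadhc* and *Slco1b2* on the lower. The sides are those of the ProbeSets that passed. For *Rab14* this was 1 of 4 called ProbeSets, and the other called ones were higher in H/W. For *Ctnnb1* 1 of 3 expressed ProbeSets was called, and for *Nfat5* 1 of 2.

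The called ProbeSets were sorted by where the L-E and Line-A means lay on a scale with Line-C at 0 and H/W at 1, a description without a test since these means set the classes. In 40 ProbeSets both lay under 0.25, so that H/W stood apart from the other 3, and in 14 both lay above 0.75, so that Line-C stood apart. In 11 the variant carriers H/W and Line-A lay together against Line-C and L-E, and in 74 both parents lay together against both lines. The other 124 fell between. Over all 263, the median position was 0.66 for L-E and 0.14 for Line-A, and S-D, a strain outside the crosses, had a median of 0.65. L-E lay within 0.25 of the H/W end or beyond it in 119 ProbeSets, and Line-A in 31. The pair Line-A and L-E, which shares no array with H/W and Line-C but does share the scan days and the estimate of spread, was called in 806 expressed ProbeSets (11.2%). Among the 263, 114 were also called there, 22 with the variant carrier on the same side as in H/W minus Line-C and 92 on the opposite side.

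**Figure D2:**
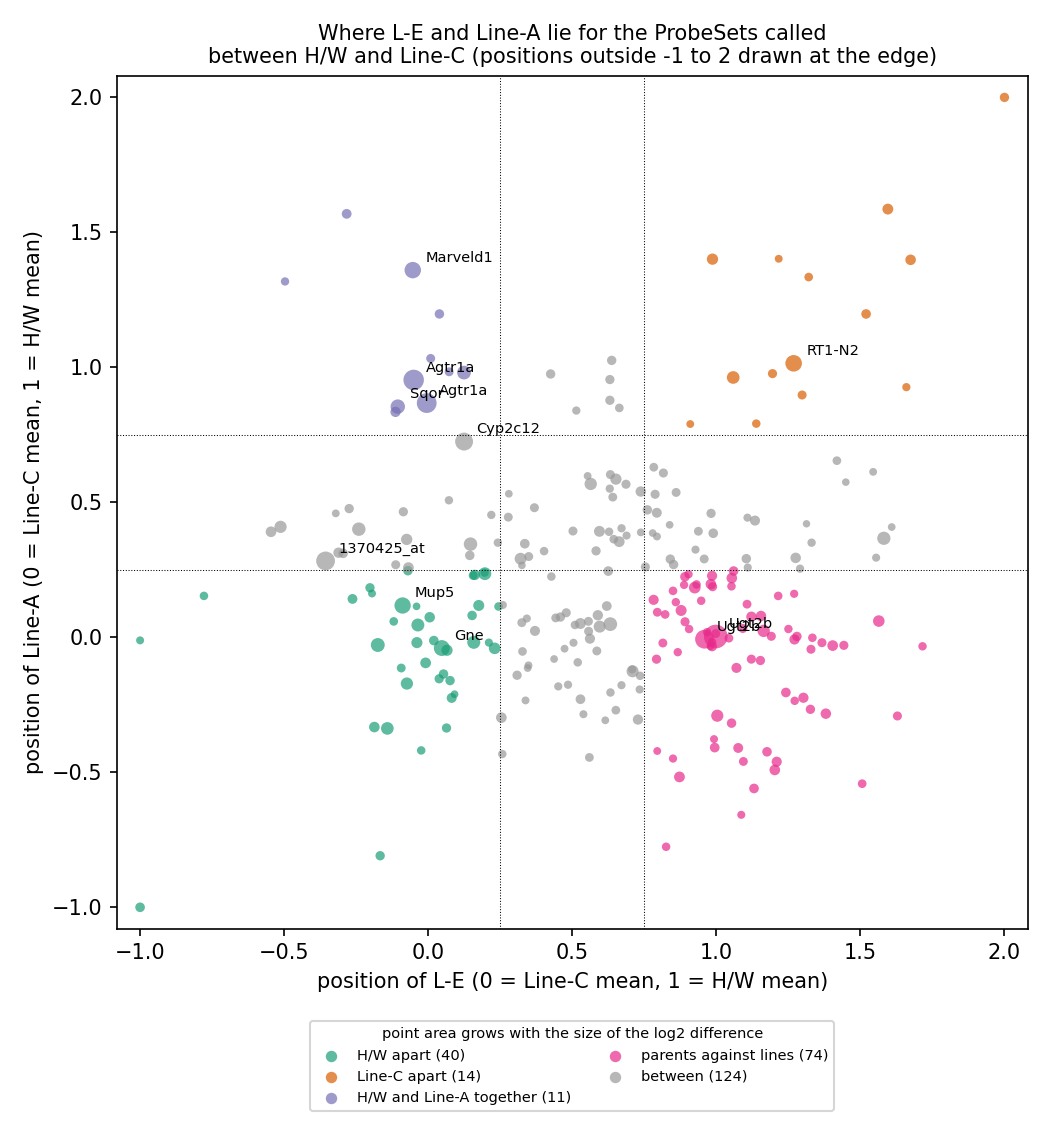
Position of the L-E mean (horizontal axis) and of the Line-A mean (vertical axis) for each of the 263 called ProbeSets, on a scale with the Line-C mean at 0 and the H/W mean at 1, with dotted lines at the class limits of 0.25 and 0.75. The lower right holds the 74 ProbeSets in which the parents stood against the lines, the lower left the 40 with H/W apart, the upper left the 11 with H/W and Line-A together against Line-C and L-E, and the upper right the 14 with Line-C apart.

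Of the ProbeSets with H/W apart, 18 of 40 also passed with scan day as a random block and 12 with chip lot. Of those with H/W and Line-A together, 7 of 11 and 5 of 11 passed, and of those with parents against lines, 18 of 74 and 4 of 74. The last class has the same split as the scan days, since L-E was scanned on days of H/W and Line-A on that of Line-C, and the part of scan day in it was not tested. Each block took 1 correlation for all ProbeSets (0.176 for scan day and 0.212 for chip lot). The classes also differ in size of difference, with medians of 1.21 for H/W and Line-A together and 0.76 for parents against lines. The counts by class therefore cannot show the part of scan day or lot in a class.

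**Figure D3:**
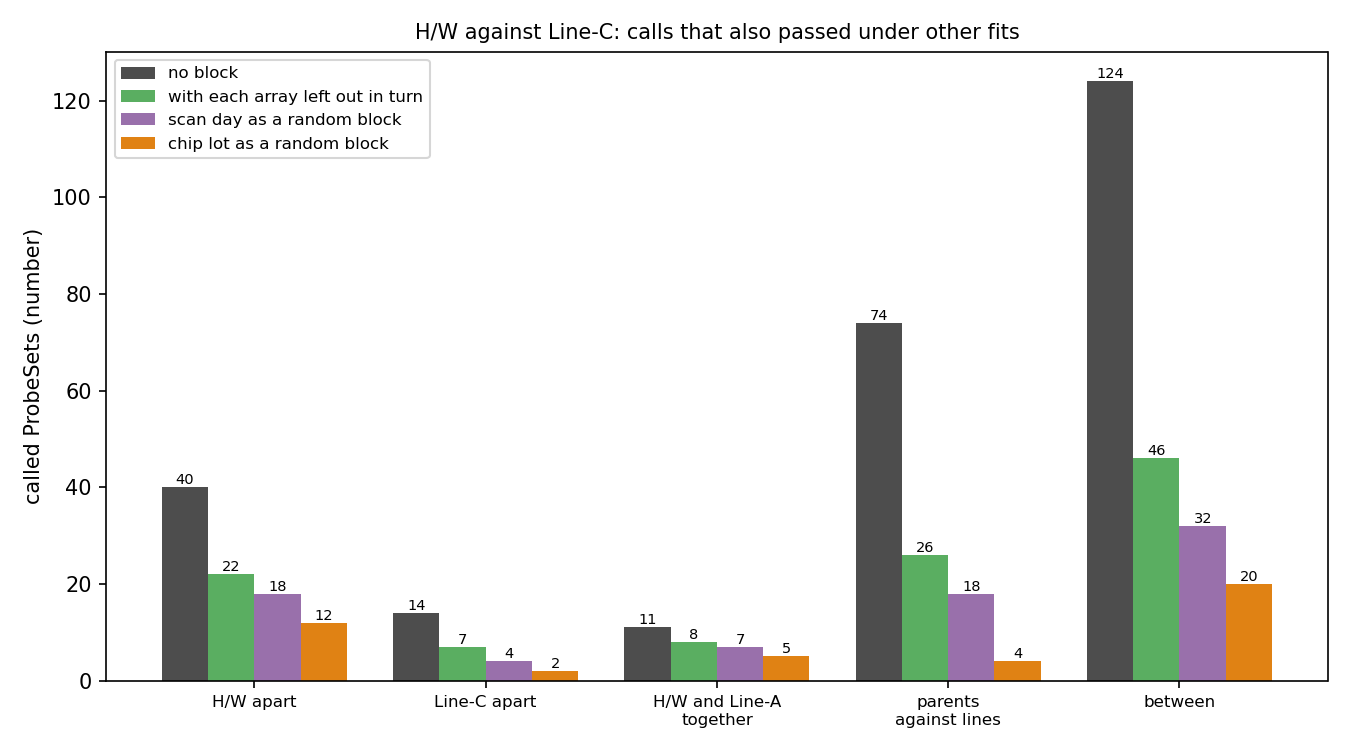
Number of ProbeSets called between H/W and Line-C in each class, and how many of them also passed with each of the 8 arrays left out in turn, with scan day as a random block and with chip lot as a random block. The class of parents against lines falls from 74 to 18 and 4 under the blocks, and that of H/W and Line-A together from 11 to 7 and 5.

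Among the 11 ProbeSets with H/W and Line-A together, those of *Agtr1a* had the largest differences. The class does not separate carriers of the variant from wild type across all 5 groups, since the S-D mean lay above 0.75, near H/W or beyond it, in 8 of the 11, under 0.25 in 1 and between in 2. *Agtr1a* encodes the type 1 angiotensin II receptor, through which angiotensin II raises blood pressure. Its brighter ProbeSet read 11.27, 11.14, 10.87 and 11.22 in H/W rats 1 to 4 and 3.96, 4.10, 3.96 and 3.59 in Line-C rats 1 to 4, the order kept below. All H/W rats lay far above all Line-C rats, and the Line-C signals lay at the limit of expression. The difference was 7.22 ± 0.16 (SE; limma, adjusted p = 4.56e-15), and taken against the limit of 4, H/W was at least 140-fold higher. The second ProbeSet gave 6.67 ± 0.11 (adjusted p = 6.47e-17). There the Line-C signals (2.70 to 2.74) lay under the limit, and taken against it H/W was at least 41.9-fold higher. In the brighter ProbeSet L-E signals ran from 3.12 to 4.07 and Line-A signals from 10.58 to 11.02. S-D, which carries wild-type *Ahr*, lay between 10.59 and 10.76, so that the high level was not limited to carriers of the variant. Of the 5 expressed genes of the renin-angiotensin list, *Agtr1a* alone passed, and the list median was -0.07 beside -0.03 over all expressed genes.

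*Sqor*, a mitochondrial enzyme that oxidises hydrogen sulfide, read 10.21, 10.63, 10.54 and 10.55 in H/W and 7.12, 7.31, 7.37 and 7.56 in Line-C. It was 8.84-fold higher in H/W (3.14 ± 0.12, adjusted p = 4.44e-11). Line-A (9.89 to 10.25) lay near H/W and L-E (6.77 to 7.19) near Line-C, with S-D between (8.22 to 8.66). *Marveld1*, a membrane protein with a MARVEL domain, read 7.21, 5.74, 7.13 and 7.48 against 2.39, 2.90, 2.32 and 2.50. H/W rat 2 was the lowest of its group but lay above every Line-C rat, all of which were under 4, and H/W was at least 7.42-fold higher when Line-C was set to that limit (4.36 ± 0.42, adjusted p = 1.24e-05). Line-A lay between 6.91 and 9.27 and L-E between 2.29 and 2.30. S-D was again high, from 7.15 to 7.90.

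*Bckdhb*, a subunit of the dehydrogenase that breaks down branched-chain amino acids, read 10.64, 10.01, 10.77 and 10.89 in H/W and 9.60, 9.58, 9.60 and 9.51 in Line-C, a difference of 1.01 ± 0.14 (adjusted p = 0.000559). Line-A lay at 11.03 to 11.23, L-E at 9.10 to 9.52 and S-D at 10.79 to 11.09. With chip lot as a random block it did not pass (adjusted p = 0.0129). *Icam1*, an adhesion molecule for leukocytes, was higher by 1.21 ± 0.25 (adjusted p = 0.00909), with the H/W rats between 6.34 and 7.25 the Line-C rats between 5.05 and 6.17, and S-D between 6.96 and 7.50. Its call was lost without any 1 of H/W rats 1, 2 and 4 and Line-C rats 1, 2 and 3 (adjusted p from 0.0122 to 0.0328). On the lower side were *Hfe*, which governs hepcidin and so iron uptake (-0.72 ± 0.13, adjusted p = 0.00423), *Hypk*, a partner of the amino-terminal acetylation complex (-0.70 ± 0.11, adjusted p = 0.00176), and *Atl2*, which shapes the endoplasmic reticulum (-0.51 ± 0.09, adjusted p = 0.00361). The groups did not overlap in any of these 3. *Hfe* lost its call without H/W rat 1 or 2 or Line-C rat 1, 3 or 4 (adjusted p from 0.0135 to 0.0186), and *Atl2* without H/W rat 1 or 3 or Line-C rat 1, 2 or 4 (0.0113 to 0.0159). *Hypk* passed without each rat in turn, but not with scan day (adjusted p = 0.0177) or chip lot (0.0360) as a random block. S-D means were 8.26 for *Hfe* and 10.41 for *Atl2*, and for *Hypk* S-D (8.92 to 9.10) lay with H/W.

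*Rab14*, a small GTPase of endosomal and Golgi traffic, was the one gene called in both directions, and its 4 expressed ProbeSets disagreed. The dimmest read 6.44, 5.92, 6.09 and 7.30 in H/W and 3.54, 4.27, 3.46 and 3.25 in Line-C (at least 5.42-fold higher in H/W with Line-C set to the limit). Another gave 0.88 ± 0.13, with an adjusted p of 0.0183 under the chip lot block, and the next gave 0.82 ± 0.16, which lost its call without H/W rat 1, 2 or 3 or Line-C rat 1, 3 or 4 (adjusted p from 0.0119 to 0.0240). The brightest went the other way, with 10.44, 10.19, 10.48 and 10.39 in H/W and 11.76, 11.91, 12.04 and 11.58 in Line-C (-1.45 ± 0.17, adjusted p = 0.000143). No direction can be given for the gene from these arrays. Of the 50 called genes with several expressed ProbeSets, 7 had all of them called and 11 had differences of both signs.

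Promoter sequences from RefSeq (GRCr8) are shown for *Agtr1a* and *Sqor*, high in H/W and Line-A, for *Nqo1*, a known AHR target, and for *Ugt2b*, the gene with the largest difference. Each is the 250 bases before the transcript start that the table gives, 5′ to 3′ on the strand of the gene, and capitals mark the core GCGTG or its reverse complement CACGC on either strand; where both ran into each other, each was counted. They are at chr17:34435433-34435682 (minus strand), chr3:130299981-130300230 (plus strand), chr19:52220268-52220517 (minus strand) and chr14:20985199-20985448 (plus strand). Other annotated transcripts start further upstream, so that the *Sqor* stretch lies within the span of the gene and that of *Agtr1a* overlaps the end of its span.
Agtr1a: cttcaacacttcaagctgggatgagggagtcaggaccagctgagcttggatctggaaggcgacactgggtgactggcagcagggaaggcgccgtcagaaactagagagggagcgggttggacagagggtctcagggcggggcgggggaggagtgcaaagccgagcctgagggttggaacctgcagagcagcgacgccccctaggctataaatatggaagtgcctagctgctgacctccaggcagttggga
Sqor: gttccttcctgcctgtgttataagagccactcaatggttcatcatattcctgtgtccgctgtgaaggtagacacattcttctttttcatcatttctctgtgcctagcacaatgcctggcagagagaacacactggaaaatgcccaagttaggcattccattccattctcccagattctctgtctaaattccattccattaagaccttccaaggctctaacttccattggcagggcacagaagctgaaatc
Nqo1: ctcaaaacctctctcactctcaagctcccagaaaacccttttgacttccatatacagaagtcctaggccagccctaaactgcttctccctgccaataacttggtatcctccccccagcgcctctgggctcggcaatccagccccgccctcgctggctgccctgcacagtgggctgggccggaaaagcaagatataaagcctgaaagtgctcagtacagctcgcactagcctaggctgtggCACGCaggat
Ugt2b: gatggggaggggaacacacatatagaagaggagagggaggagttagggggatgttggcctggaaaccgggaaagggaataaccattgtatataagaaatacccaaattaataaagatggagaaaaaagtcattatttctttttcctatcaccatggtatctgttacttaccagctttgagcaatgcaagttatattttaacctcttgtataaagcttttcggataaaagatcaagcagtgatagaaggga
The core was present in the *Nqo1* stretch and not in the other 3, nor in those of *Marveld1*, *Bckdhb*, *Gne*, *Bco1*, *Cd63* and *Cyp1a2*, the last also a known AHR target, while *Icam1* and *Atl2* each held 1. In the whole table, which reaches 50 bases past the start, 31.1% of 27457 promoters held the core, as did 51.1% of the 4579 expressed genes with a promoter there and 44.3% of the 158 called genes. The shares were 44.7% for genes higher and 43.9% for genes lower in H/W. Of the 6 genes with H/W and Line-A together and a promoter in the table, 3 held it. A match is a run of letters and not a binding site.

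The array signal of *Ahr* itself lay under the limit of 4 in all groups, with 3.16, 3.12, 2.99 and 3.14 in H/W and 3.09, 3.13, 3.17 and 3.15 in Line-C. So did those of *Arnt*, its partner, *Cyp1b1* and, on average, *Cyp1a1*. A signal under this limit does not show that the mRNA was absent. *Cyp1a1* read 1.69, 2.64, 7.63 and 2.98 in H/W and 5.31, 2.98, 4.33 and 3.04 in Line-C. 1 H/W rat and 2 Line-C rats lay above 4 and the groups overlapped (-0.18 ± 1.10, adjusted p = 0.94). *Cyp1a2*, the constitutive AHR-regulated P450 of liver, was among the brightest signals and differed by -0.06 ± 0.10 (adjusted p = 0.772), with 14.15 to 14.64 in H/W and 14.28 to 14.47 in Line-C. *Tiparp*, an ADP-ribosyltransferase induced by AHR, differed by 0.01 ± 0.17. *Nqo1*, a quinone reductase under the control of AHR and NRF2, read 5.02, 6.71, 5.11 and 5.0 in H/W and 8.80, 8.41, 8.30 and 9.73 in Line-C. It did not pass at 1% FDR (-3.35 ± 0.70, adjusted p = 0.0104), although the groups did not overlap, and without H/W rat 2 it did (adjusted p = 0.00989). L-E and Line-A means were 9.47 and 8.76, and S-D spread from 4.25 to 8.35. *Selenbp1*, a selenium-binding protein, was the member of the AHR list that passed (0.89 ± 0.16, adjusted p = 0.00385), and its call was lost without H/W rat 1 or 3 or Line-C rat 1 (adjusted p from 0.0120 to 0.0157). It was 1 of 6 expressed AHR-list genes, beside 3.38% of all expressed genes called.

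The class with H/W apart was led by *Mup5* and *Gne*. *Mup5* belongs to the major urinary proteins, lipocalins that the liver of male rats secretes under androgen and growth hormone. Its brighter ProbeSet read 10.89, 10.21, 10.86 and 10.91 in H/W and 6.04, 6.47, 7.10 and 6.19 in Line-C, 19.2-fold higher (4.27 ± 0.28, adjusted p = 7.08e-08). Of its 2 other expressed ProbeSets 1 was called (1.63 ± 0.33, adjusted p = 0.00931), a call lost without any 1 of the rats but H/W rat 2 (0.0121 to 0.0352). The related *Obp3*, the alpha-2u-globulin of male rat urine, was higher by 1.36 ± 0.21 in its brighter ProbeSet (adjusted p = 0.00115) and by 2.04 ± 0.29 in the other, although both fell between the classes (Line-A means 13.85 and 13.12). With chip lot as a random block the adjusted p was 0.0281 and 0.0163, and with scan day 0.0132 for the former. Members of this family are nearly identical in sequence, so that their probes may share transcripts, and which member differed is uncertain. S-D was as high as H/W for *Mup5* (10.44 to 10.59), whereas L-E (5.20 to 6.78) and Line-A (6.80 to 7.09) were as low as Line-C.

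*Gne* makes the precursor of sialic acid. It read 8.95, 9.62, 9.19 and 9.12 in H/W and 5.81, 5.07, 4.99 and 4.96 in Line-C, 16.1-fold higher (4.01 ± 0.20, adjusted p = 1.32e-09). L-E (5.18 to 5.65) and Line-A (4.92 to 5.19) lay with Line-C, and S-D (8.24 to 8.97) near H/W. *Retsat*, retinol saturase, read 12.19, 11.73, 11.70 and 11.46 against 9.32, 9.22, 9.17 and 9.68, 5.36-fold higher (2.42 ± 0.14, adjusted p = 2.1e-08). Here too S-D (11.52 to 11.86) was as high as H/W.

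*Gstm4*, a glutathione transferase, read 9.33, 9.12, 9.36 and 8.28 in H/W and 6.62, 6.61, 6.73 and 6.87 in Line-C, 4.99-fold higher (2.32 ± 0.23, adjusted p = 1.42e-05). *Lss*, lanosterol synthase, which closes the sterol ring in cholesterol synthesis, read 8.79, 9.06, 9.43 and 8.54 against 6.61, 7.17, 7.10 and 6.80 (2.04 ± 0.21, adjusted p = 2.35e-05), and its second ProbeSet gave 1.54 ± 0.20. All H/W rats lay above all Line-C rats in both genes, and L-E and Line-A means were 7.16 and 7.25 for *Gstm4* and 6.77 and 6.57 for *Lss*.

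On the lower side with H/W apart, *Bco1*, which cleaves beta-carotene into retinal, read 4.09, 4.84, 4.49 and 4.07 in H/W and 7.34, 6.85, 7.44 and 7.35 in Line-C. Line-C was 7.33-fold higher (-2.87 ± 0.16, adjusted p = 5.9e-09), and L-E (7.56 to 7.95), Line-A (7.20 to 7.43) and S-D (7.82 to 8.03) all lay with it, so that *Bco1* was low in H/W alone of the 5 groups. *Cd63*, a tetraspanin of late endosomes and lysosomes, read 7.06, 7.69, 8.28 and 7.62 against 9.71, 9.99, 10.16 and 10.27 (-2.37 ± 0.19, adjusted p = 1.14e-06), again with the other 3 groups near Line-C (means 10.12 in L-E, 9.92 in Line-A and 9.60 in S-D). *Nupr1*, a stress-induced chromatin protein, read 5.72, 6.71, 4.41 and 4.77 against 7.01, 7.89, 7.67 and 7.98 (-2.23 ± 0.39, adjusted p = 0.00315), and lost its call without Line-C rat 2, 3 or 4 (adjusted p from 0.0103 to 0.0121).

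*Mmadhc*, which handles vitamin B12, had a small and even difference, with 9.33, 9.07, 9.22 and 9.20 in H/W and 9.99, 10.11, 10.07 and 9.97 in Line-C (-0.83 ± 0.06, adjusted p = 7.4e-07). Of 5 expressed ProbeSets annotated to *Myh1*, a myosin heavy chain of skeletal muscle, 4 were called, with differences of -0.68 to -0.91. Their means were as high as 11.97 in L-E liver, and only the array annotation ties them to this gene. The one at -0.68 lost its call without any 1 of the rats but H/W rat 4 (adjusted p from 0.0143 to 0.0378). The one at -0.85 lost it with scan day (0.0184) and chip lot (0.0388) as a random block, and the one at -0.91 with chip lot (0.0112).

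**Figure D4:**
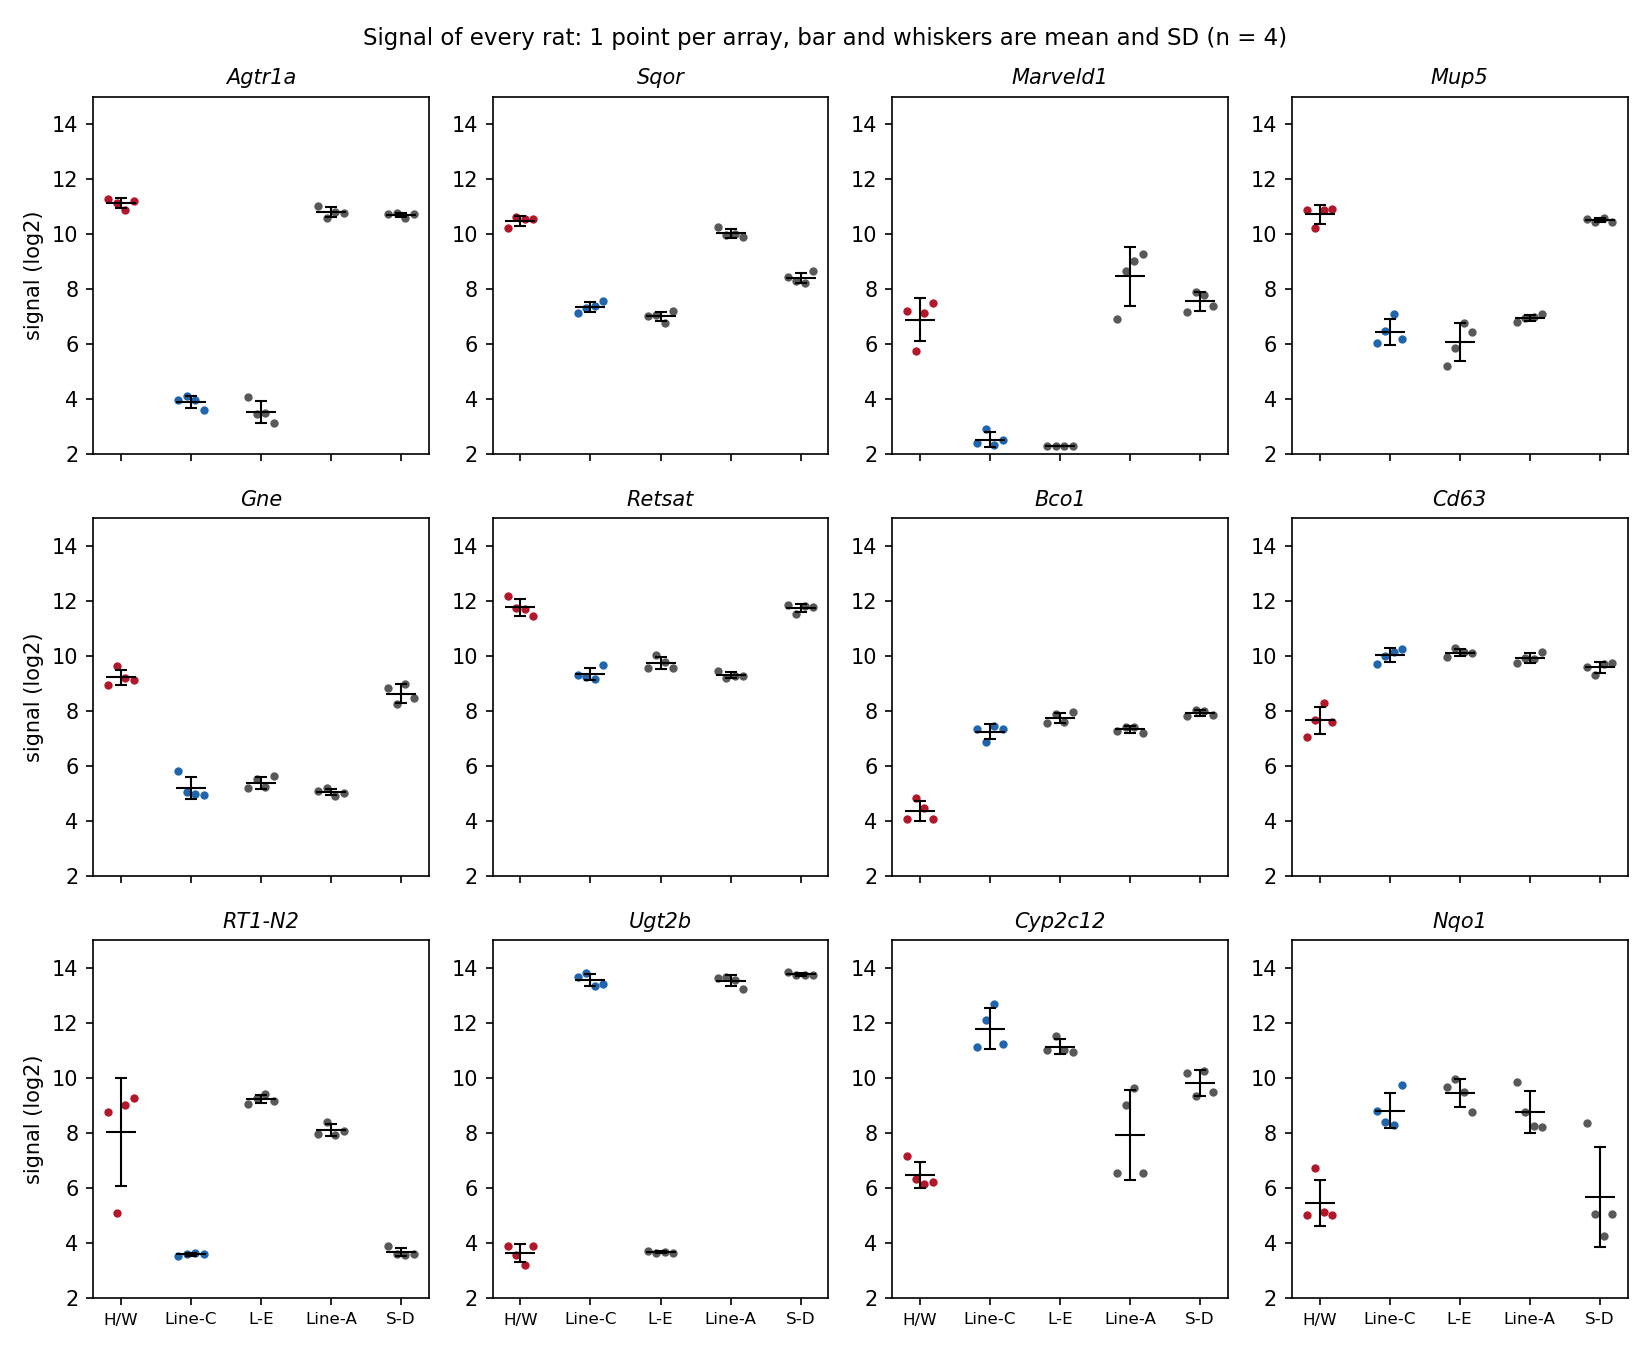
Signal (log2) of every rat for 12 genes in H/W (red), Line-C (blue) and the other 3 groups (grey), 1 point per rat, with bar and whiskers for the mean and SD (n = 4). *Agtr1a*, *Sqor* and *Marveld1* were high in H/W and Line-A and low in Line-C and L-E, *Mup5*, *Gne* and *Retsat* were high in H/W and S-D, *Ugt2b* was low in both parents, and *RT1-N2* was low in Line-C and S-D.

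The largest difference of all was that of *Ugt2b*, of the family of UDP-glucuronosyltransferases that conjugate steroids and drugs for excretion. Its brighter ProbeSet read 3.90, 3.57, 3.20 and 3.89 in H/W and 13.67, 13.81, 13.32 and 13.41 in Line-C. The H/W signals lay under the limit of expression, and with H/W set to that limit Line-C was at least 751-fold higher (-9.91 ± 0.14, adjusted p = 1.29e-17). The second ProbeSet gave 4.16, 4.69, 4.58 and 4.21 against 10.58, 10.53, 10.15 and 10.33 (-5.99 ± 0.11, adjusted p = 3.64e-16). L-E was as low as H/W (3.62 to 3.70 in the brighter ProbeSet), whereas Line-A (13.23 to 13.68) and S-D (13.72 to 13.83) were as high as Line-C. Both lines thus stood at a level that neither parent group had. Members of this family are alike in sequence, and which member the probes read is uncertain. In the list of these enzymes and the sulfotransferases, 1 of 13 expressed genes passed as higher and 1 as lower in H/W. The higher one was *Sult1e1*, the estrogen sulfotransferase, with 14.46, 14.26, 14.41 and 14.22 against 13.79, 13.90, 13.79 and 13.68 (0.55 ± 0.07, adjusted p = 0.000328, and 0.0103 with chip lot as a random block).

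Other genes with the parents against the lines were of smaller size. *Stk24*, a stress-responsive kinase, was higher by 2.10 ± 0.39 (adjusted p = 0.00476), with the H/W rats between 6.06 and 7.51 and the Line-C rats between 4.27 and 5.25. *Vat1*, a membrane protein of vesicles, was higher by 2.01 ± 0.34 (adjusted p = 0.00287) and *Hnrnpul1*, a nuclear RNA-binding protein, by 1.74 ± 0.29 (adjusted p = 0.00285). *Mlf2* read 9.69, 9.67, 9.85 and 9.27 against 8.22, 8.26, 8.34 and 8.50 (1.29 ± 0.10, adjusted p = 1e-06), with means of 9.59 in L-E and 8.58 in Line-A. On the lower side were *Uba6*, an activating enzyme for ubiquitin (-1.80 ± 0.26, adjusted p = 0.000794), and *Kpna1*, an importin (-1.17 ± 0.16, adjusted p = 0.000496). *Stk24* lost its call without H/W rat 1, 2 or 3 or Line-C rat 2, 3 or 4 (adjusted p from 0.0105 to 0.0181), *Vat1* without H/W rat 1 or 2 or Line-C rat 2 (0.0112 to 0.0119) and *Hnrnpul1* without H/W rat 2 or Line-C rat 3 (0.0112 to 0.0113). Under the scan day block the adjusted p was 0.0417, 0.0197 and 0.0209 for these 3, and *Mlf2*, *Uba6* and *Kpna1* still passed. With chip lot *Uba6* (0.0206) and *Kpna1* (0.0129) did not.

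Line-C stood apart from the other 3 groups of the cross in 14 ProbeSets. *RT1-N2*, a class I gene of the rat major histocompatibility complex, read 8.74, 5.08, 9.03 and 9.26 in H/W and 3.52, 3.58, 3.62 and 3.61 in Line-C. H/W rat 2 lay far below the other 3 H/W rats but above all Line-C rats, which were under the limit, and with Line-C set to it H/W was at least 16.3-fold higher (4.44 ± 0.61, adjusted p = 0.000475). L-E (9.05 to 9.40) and Line-A (7.92 to 8.41) were high, and S-D (3.57 to 3.90) was as low as Line-C. In the fit of the 8 arrays alone the adjusted p was 0.0922, and with chip lot as a random block 0.0112. *Nfat5*, the transcription factor of the response to osmotic stress, read 6.04, 6.23, 6.15 and 5.81 against 3.33, 4.35, 3.55 and 3.92 (2.27 ± 0.18, adjusted p = 1.23e-06), at least 4.16-fold higher in H/W with Line-C set to the limit, whereas its second ProbeSet was not called. *Sirt3*, a mitochondrial deacetylase, was higher in H/W by 1.44 ± 0.23 (adjusted p = 0.00198), with means of 7.29 in L-E and 7.27 in Line-A above that of H/W, but did not pass with scan day (0.0172) or chip lot (0.0388) as a random block. *Isyna1*, which makes inositol phosphate, was lower by 1.31 ± 0.21 (difference -1.31, adjusted p = 0.00161, and 0.0177 with scan day and 0.0341 with chip lot as a random block) and *Selenow*, a small selenoprotein, by 1.62 ± 0.29 (difference -1.62, adjusted p = 0.0044). *Selenow* lost its call without H/W rat 1, 2 or 4 or Line-C rat 2, 3 or 4 (adjusted p from 0.0109 to 0.0194).

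Among the ProbeSets that fell between the classes, *Cyp2c12* had the largest difference with a gene symbol. It is the steroid P450 that rat liver is known to express mainly in females. These males read 7.17, 6.32, 6.16 and 6.20 in H/W and 11.12, 12.09, 12.70 and 11.25 in Line-C, which was 40.2-fold higher (-5.33 ± 0.59, adjusted p = 5.1e-05). L-E lay near Line-C (10.94 to 11.53), Line-A spread widely from 6.53 to 9.63, and S-D lay between 9.32 and 10.24. The ProbeSet may also read other members of the CYP2C family, which are alike in sequence. *Cyp2c6v1*, another of them, was higher in H/W by 0.86 ± 0.11 (adjusted p = 0.000217), with 13.90, 13.75, 13.66 and 13.83 against 13.10, 12.86, 12.72 and 13.02.

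*Hyou1*, a chaperone of the endoplasmic reticulum, read 9.89, 9.86, 9.64 and 9.32 in H/W and 7.16, 7.07, 7.30 and 6.61 in Line-C, 6.24-fold higher (2.64 ± 0.28, adjusted p = 3.15e-05). *Aldh1a1*, which oxidises retinal, was higher by 2.53 ± 0.50 (adjusted p = 0.00726), with 10.57, 9.77, 10.06 and 9.49 against 6.73, 7.27, 8.35 and 7.40. L-E was higher still (mean 11.45). Its call was lost without H/W rat 1, 2 or 3 or Line-C rat 1, 2 or 4 (adjusted p from 0.0170 to 0.0285). *Adipor2*, a receptor for adiponectin, read 4.82, 4.55, 6.0 and 5.56 against 3.10, 3.03, 3.45 and 2.96, at least 2.35-fold higher in H/W with Line-C set to the limit (adjusted p = 0.000318). *Mgll*, which releases fatty acids from monoacylglycerols, had 4 expressed ProbeSets, of which 2 were called. Of these 2, the dimmer was higher by 1.89 ± 0.20 (adjusted p = 3.84e-05) and the brighter by 1.24 ± 0.24 (0.00677). The lowest difference among the 4 was -0.01. The brighter lost its call without H/W rat 1, 2 or 3 or Line-C rat 2, 3 or 4 (adjusted p from 0.0102 to 0.0246).

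Lower in H/W, *Ctnnb1*, beta-catenin, which sets the zones of the liver lobule, read 10.90, 10.92, 10.82 and 11.14 against 12.05, 12.16, 12.29 and 11.89 (-1.15 ± 0.10, adjusted p = 3.17e-06). This was the only 1 of its 3 expressed ProbeSets that was called, and their differences ran from -1.15 to -0.16. *Galt*, of galactose metabolism, gave -1.12 ± 0.12 (adjusted p = 4.44e-05), and *Stt3b*, a catalytic subunit of N-glycosylation, -0.86 ± 0.09 (adjusted p = 2.22e-05). For *Ctnnb1* (the called ProbeSet), *Galt* and *Stt3b* the Line-A mean (12.10, 10.24 and 10.63) lay near that of Line-C and the L-E mean (11.45, 9.85 and 10.30) in between. *Dync1li1*, a chain of the dynein motor, read 6.37, 6.91, 6.40 and 6.36 against 8.45, 8.51, 8.51 and 8.37 (-1.95 ± 0.18, adjusted p = 5.11e-06). *Slco1b2*, the hepatic transporter of bile acids and drugs, read 11.59, 11.46, 11.36 and 11.65 against 12.31, 12.33, 12.22 and 12.47 (-0.81 ± 0.08, adjusted p = 2.35e-05). *Slc6a6*, the taurine transporter, read 5.06, 4.42, 5.50 and 7.75 against 8.39, 8.59, 8.94 and 7.98 (-2.79 ± 0.56, adjusted p = 0.00861). H/W rat 4 nearly reached the lowest Line-C rat, and the call was lost without any 1 of the other 7 rats (adjusted p from 0.0127 to 0.0314).

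By gene, with the brightest ProbeSet standing for each, 182 of 5388 expressed genes were called (3.38%), 85 higher (1.58%) and 97 lower (1.80%) in H/W. The 29 gene lists held 474 expressed genes, of which 29 were called, 14 higher and 15 lower. The list of sex-biased genes, whose expression in rat liver follows sex steroids and growth hormone, had 3 of 23 higher (*Mup5*, *Obp3* and *Sult1e1*) and 1 lower (*Cyp2c12*), with a median of 0.08. *Mup5* and *Obp3* are male-biased and *Cyp2c12* female-biased, whereas the male-biased and female-biased members that did not pass lay on both sides of 0. Of all 23, the called members and both kinds of bias included, 14 lay above 0. Among 33 P450 genes 1 was higher (*Cyp2c6v1*) and 2 lower (*Cyp2c12* and *Cyp2j4*), with a median of 0.04. *Cyp2j4*, an epoxygenase of fatty acids, read 8.63, 8.12, 8.65 and 8.66 against 9.39, 9.29, 9.75 and 9.23 (-0.90 ± 0.17, adjusted p = 0.00542), and lost its call without H/W rat 1 or 2 or Line-C rat 1, 2 or 3 (adjusted p from 0.0119 to 0.0215). *Por*, the reductase that supplies P450 enzymes with electrons, differed by 1.29 ± 0.31 and did not pass at 1% (adjusted p = 0.0248). Of the glutathione transferases and epoxide hydrolases 1 of 18 passed, *Gstm4*, and of the 19 antioxidant genes none did at 1% or 5% FDR in limma. At an unadjusted p under 0.05, 3 of these were higher and 1 lower. Over all expressed genes 28.0% passed that unadjusted limit, 11.2% higher and 16.8% lower, and the unadjusted counts of the lists below are to be read beside these shares. By sign, 2373 of the 5388 expressed genes lay above 0, with a median of -0.03. The numbers of list members above or below 0 are to be read beside this.

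In lipid and carbohydrate metabolism, *Lss* was 1 of 19 in cholesterol synthesis, whose median was 0.04, and *Mgll* 1 of 20 in the list of fatty acid synthesis and storage. Of 30 genes of fatty acid oxidation and 19 of glycolysis and gluconeogenesis none passed at 1%, while at 5% FDR 1 was lower in the former and 1 higher in the latter. At an unadjusted p under 0.05 in limma, 6 were higher and 2 lower in the former, and 3 higher and 1 lower in the latter. The medians were 0.14 and 0.09. *Slco1b2* was 1 of 19 bile acid genes, of which 13 lay below 0 (median -0.17). *Cyp7a1*, which starts the conversion of cholesterol to bile acids, differed by 1.02 ± 0.72 (adjusted p = 0.622), and its groups overlapped. In amino acid metabolism *Sqor* and *Bckdhb* were higher and *Hpd*, of tyrosine breakdown, lower (-0.30 ± 0.06, adjusted p = 0.00603) among 38 genes. *Hpd* lost its call without H/W rat 1 or 4 or any Line-C rat (adjusted p from 0.0117 to 0.0242).

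Of 35 respiratory chain genes, 27 lay below 0 with a median of -0.10, and *Ndufa1*, a subunit of complex I, passed at 1% (-0.28 ± 0.06, adjusted p = 0.00698). At 5% FDR in limma 4 were lower and 0 higher, and at an unadjusted p under 0.05 9 were lower and 0 higher, the former beside 4.99% and 3.27% of all expressed genes. *Ndufa1* lost its call without H/W rat 1, 2 or 4 or Line-C rat 1, 2 or 4 (adjusted p from 0.0170 to 0.0254). Of 25 lysosomal genes 3 were lower and 0 higher at 1% FDR in limma, with 8 and 1 at an unadjusted p under 0.05. The 3 were *Cd63* and the cathepsins *Ctsl* (-0.53 ± 0.10, adjusted p = 0.00652) and *Ctsb* (-0.34 ± 0.06, adjusted p = 0.00487). The cathepsins, proteases of the lysosome, each lost their call when single rats were left out, among them H/W rat 1 and every Line-C rat (adjusted p up to 0.0251 and 0.0186). *Cd63* did not.

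Of 27 protease inhibitors 2 were lower and 0 higher at 1% FDR in limma, and 8 and 0 at an unadjusted p under 0.05. *Serpina3m*, a serpin secreted by the liver, read 11.89, 11.86, 12.07 and 11.90 in H/W and 12.49, 12.42, 12.36 and 12.63 in Line-C (-0.55 ± 0.06, adjusted p = 0.000102). *Cstb*, an inhibitor of cathepsins, gave -0.92 ± 0.14 (adjusted p = 0.00145, and 0.0183 with chip lot as a random block). None of 24 acute-phase genes passed at 1% FDR in limma, 1 was lower at 5%, and 5 were lower and 0 higher at an unadjusted p under 0.05. Of 15 stress-response genes *Nupr1* was lower, and of 10 circadian clock genes none passed at 1% or 5% FDR in limma, and 1 was higher at an unadjusted p under 0.05.

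In the immune lists, of 16 genes of class I antigen presentation *RT1-N2* was higher and *Erap1*, which trims peptides for it, lower (-0.70 ± 0.14, adjusted p = 0.00945), a call lost without H/W rat 1, 3 or 4 or any Line-C rat (adjusted p from 0.0101 to 0.0353). None of 8 class II genes passed at 1% or 5% FDR in limma, nor at an unadjusted p under 0.05. Among 19 interferon-induced genes *Ifitm1*, which hinders the entry of viruses, was higher (0.88 ± 0.12, adjusted p = 0.000568) and *Ifi27* lower (-0.61 ± 0.09, adjusted p = 0.000678), and both passed without each rat in turn and with scan day but not with chip lot as a random block (adjusted p = 0.0153 and 0.0183). At an unadjusted p under 0.05 2 were higher and 7 lower. Of the 19, 14 lay below 0, with a median of -0.25. *Irf7*, the transcription factor of this response, read 5.74, 5.71, 5.42 and 6.13 in H/W and 6.67, 6.92, 7.43 and 7.18 in Line-C, and *Oas1a*, a sensor of viral RNA, 4.07, 4.20, 3.98 and 4.14 against 5.34, 6.02, 7.59 and 4.93. Neither pair of groups overlapped, and neither gene passed at 1% (adjusted p = 0.016 and 0.0294).

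**Figure D5:**
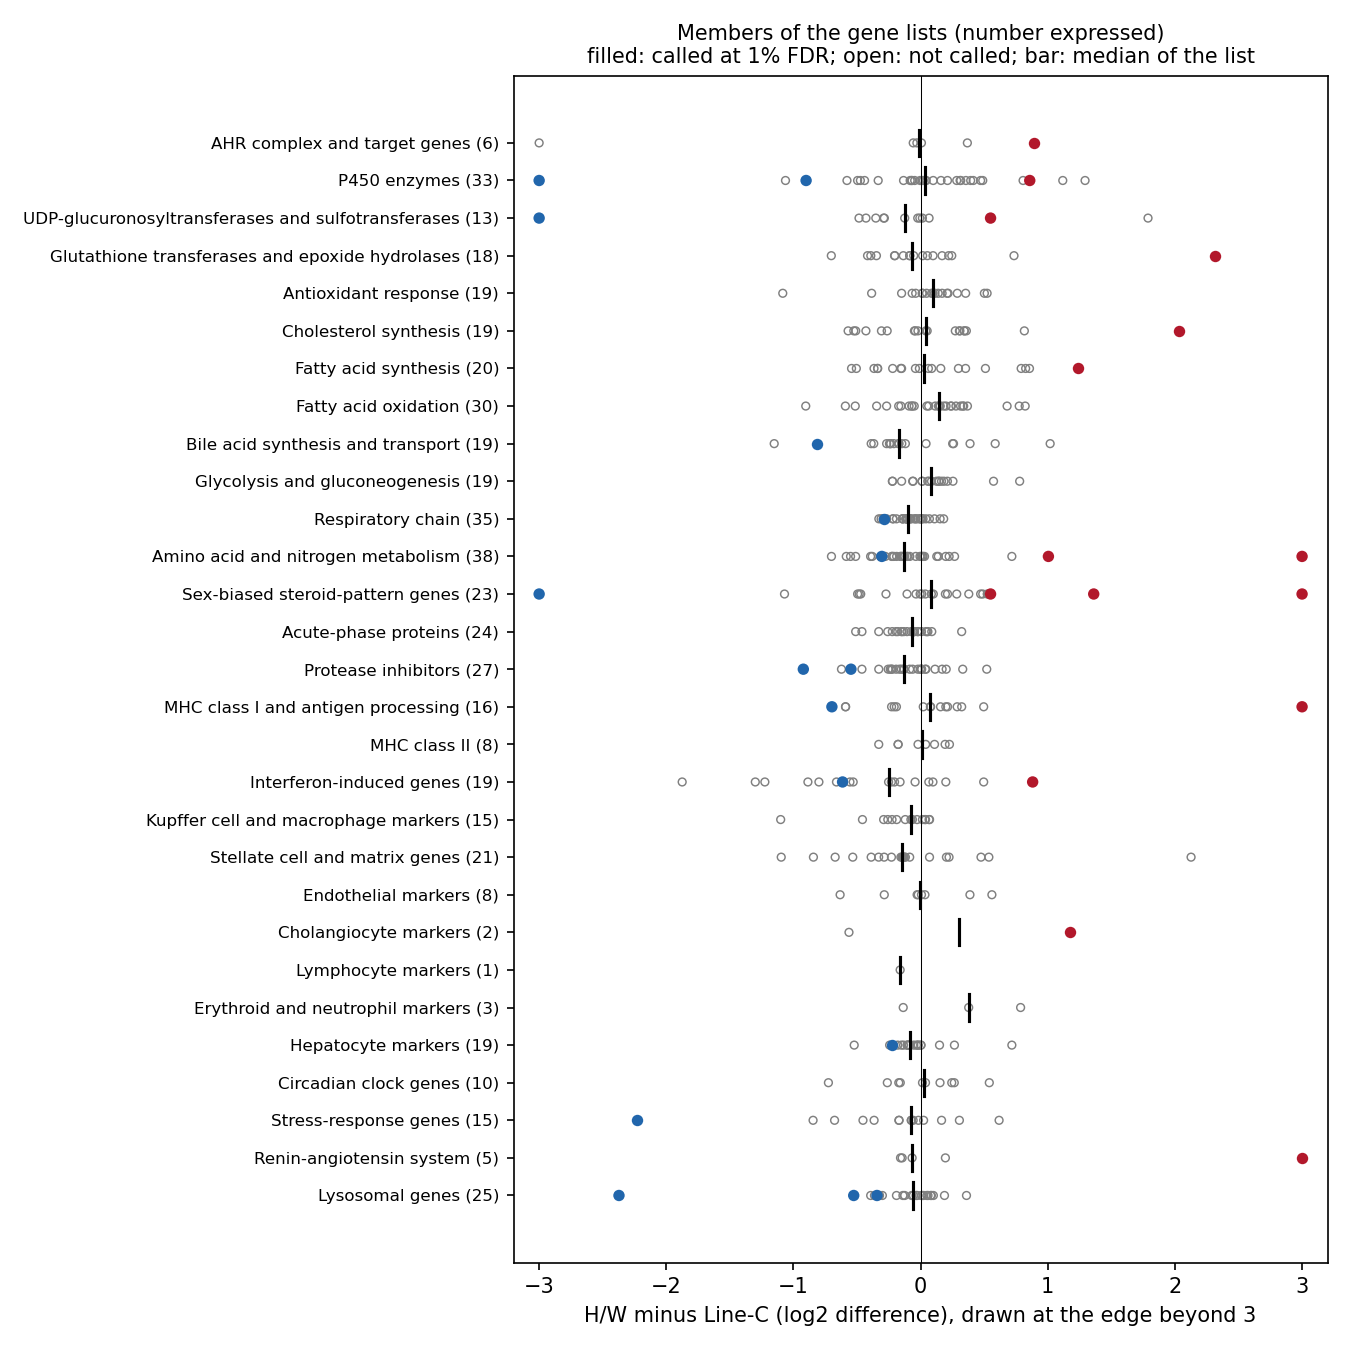
Log2 difference between H/W and Line-C (horizontal axis) of every expressed member of the 29 gene lists (rows, with the number expressed), filled where called at 1% FDR and open where not, with a bar at the median of the list and values beyond 3 drawn at the edge. Called members number at most 4 in a list, and the list medians lie between -0.25 and 0.38.

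Bulk liver holds several cell types, and fewer cells of a type cannot be told apart from less RNA per cell. The mean signal of the 15 expressed Kupffer cell markers was 7.16 to 7.41 in H/W and 7.34 to 7.56 in Line-C, and none of them passed at 1% or 5% FDR in limma, 2 being lower at an unadjusted p under 0.05. That of 21 stellate cell and matrix genes was 5.71 to 6.35 and 5.85 to 6.29, with none called at 1% and 2 lower at 5% FDR in limma (2 higher and 3 lower at an unadjusted p under 0.05). Among the latter *Sparc*, a matrix glycoprotein, differed by -0.84 ± 0.18 (adjusted p = 0.0126). *Lox*, which crosslinks collagen, read 5.86, 2.42, 8.23 and 2.45 in H/W and 2.39, 2.45, 3.12 and 2.48 in Line-C, so that 2 H/W rats were high and 2 were at the Line-C level (adjusted p = 0.295). Endothelial markers gave 6.94 to 7.15 and 6.94 to 7.18 with none called at 1% FDR in limma (2 higher and 2 lower at an unadjusted p under 0.05), and the 3 expressed erythroid and neutrophil markers 7.10 to 7.63 and 6.53 to 7.19. Of 2 expressed cholangiocyte markers *Slc4a2*, an anion exchanger, was higher (1.17 ± 0.22, adjusted p = 0.0054), and *Epcam*, an epithelial adhesion molecule, differed by -0.56 ± 0.15 without passing at 1% (adjusted p = 0.0426), its groups not overlapping. The defining markers *Krt7* and *Krt19* were under the limit. The call of *Slc4a2* was lost without H/W rat 1, 2 or 3 or Line-C rat 1, 2 or 3 (adjusted p from 0.0151 to 0.0215). Of 19 lymphocyte markers on the array 1 was expressed and it did not pass. Of 19 hepatocyte markers *Apoh*, which encodes the plasma protein apolipoprotein H, passed (-0.22 ± 0.04, adjusted p = 0.00192), but not with scan day (0.0164) or chip lot (0.0341) as a random block.

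RNA quality, read from the difference between the 3′ and 5′ probes of GAPDH, had a mean of 0.49 ± 0.22 on the log2 scale in H/W and of 0.45 ± 0.05 in Line-C (both SD, n = 4), with the highest value, 0.81, in H/W rat 3. With this measure as a covariate 272 ProbeSets were called. Without H/W rats 3 and 4 together 321 were called, 145 higher and 176 lower.

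Placed on the rat chromosomes by the RefSeq annotation (GRCr8), 179 of 5369 expressed genes were called (3.33%). The share ran from 0 of 141 on chromosome 13 to 17 of 314 (5.41%) on chromosome 4, and was 4.62% on chromosome 6, which holds *Ahr* at chr6:57961423-57998901. Within 5 Mb of *Ahr* on either side 0 of 8 expressed genes were called, and within 10 Mb 0 of 16. Within 20 Mb 2 of 36 were, *Sptssa*, of sphingolipid synthesis (-0.42 ± 0.08), and *Strn3*, a scaffold of phosphatase complexes (0.95 ± 0.19). The calls of both were lost when single rats were left out (adjusted p up to 0.0203 for *Sptssa* and 0.0318 for *Strn3*). Of the genes with H/W and Line-A together, *Atl2* lay on chromosome 6 but at chr6:20891220-20932644, outside these windows, *Sqor*, *Hypk* and *Rab14* on chromosome 3, *Agtr1a* and *Hfe* on chromosome 17, and *Bckdhb* and *Icam1* on chromosome 8. In all, 9 pairs of called genes were neighbours among the expressed genes. How many such pairs chance would give was not tested. In 7 of them both genes moved the same way. These were *Obp3* and *Mup5* on chromosome 5, *Ptms* and *Mlf2* on chromosome 4 and *Kpna1* and *Parp9* on chromosome 11. The rest were *Grina* and *Oplah* as well as *Map2k2* and *Sgta* on chromosome 7, *Slc25a10* and *Gcgr* on chromosome 10 and *Galt* and *Il11ra1* on chromosome 5. *Obp3* and *Mup5* belong to 1 family, and their probes may share transcripts. *Hddc3* (-0.46) and *Furin* (0.96) on chromosome 1 went opposite ways, as did *Gatad2a* (0.73) and *Ndufa13* (-0.32) on chromosome 16. The calls of these 4 genes and of *Parp9* were lost when single rats were left out (adjusted p up to 0.0169 for *Hddc3*, 0.0274 for *Furin*, 0.0229 for *Gatad2a*, 0.0221 for *Ndufa13* and 0.0193 for *Parp9*). So were those of *Slc25a10* (up to 0.0222), *Gcgr* (0.0234), *Il11ra1* (0.0220) and *Map2k2* (0.0298). With chip lot as a random block *Ptms* (0.0114), *Grina* (0.0112), *Oplah* (0.0263) and *Sgta* (0.0153) lost theirs too, and with scan day *Oplah* (0.0132).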

How the data were processed

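Liver RNA of 20 male rats was hybridised to Affymetrix RAE230A arrays, 1 rat per array and 4 rats per strain or line. The authors deposited log2 signals made with GC-RMA, which corrects background by probe sequence and quantile-normalizes (the submitters' processing notes name R 2.6.1, affy 1.12.0 and GCRMA 2.10.0). Their array headers were used for scan day and chip lot. Quantile normalization hides shifts shared by all genes, and 4 rats per group limit the precision.

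The log2 values were tested as deposited with limma 3.58.1 in R 4.3.3, in 1 fit with a mean per strain or line over the 20 arrays. Benjamini-Hochberg adjustment ran over all 15923 ProbeSets, and a difference was called at 1% FDR. ProbeSets with a mean of at least 4 were described, and the brightest ProbeSet stood for a gene. Of the ProbeSets, 12789 had 1 symbol, 312 several and 2822 none. The members, gene lists and rules were chosen with earlier results of these data known. The naming rule took the 15 largest called differences in each direction and the 8 largest of each class. It also took up to 6 called and the 3 brightest members of each list, 10 genes around AHR, and called neighbours on a chromosome. Not all genes chosen by it are described above. Among those left out, *Anxa4* lost its call without H/W rat 1 or Line-C rat 2 or 3. *Wipi1*, also left out, lost it without H/W rat 1, 2 or 4 or Line-C rat 2 or 3. *Nfat5*, *Ctnnb1*, *Stt3b*, *Mmadhc*, *Myh1*, *Por*, *Cyp7a1*, *Irf7*, *Oas1a*, *Epcam*, *Sptssa* and *Strn3* were named outside this rule, after their values were seen. Same-numbered rats did not vary together (correlation of deviations -0.12 to -0.013), so replicate numbers were not taken as pairs. In simulated data for this comparison 80 of 100 changes of 1 on the log2 scale were recovered, and 33 of 100 changes of 0.5. The simulated noise was normal and independent, with 1 SD per ProbeSet for all groups and no effect of scan day or chip lot. In the real arrays the SD of deviations from the group mean was 0.23 to 0.31 in H/W and 0.19 to 0.23 in Line-C. The recovered shares may therefore not hold for the real data.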

Additional observations from a re-analysis of the deposited data

Results flagged for a closer look

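In 13 of the 132 groups of 4 rats examined, 1 rat lay far from the other 3 by Dixon's criterion, which chance alone meets in about 1 of 20 groups. H/W rat 2 was low for *RT1-N2* (5.08, the others 8.74 to 9.26), *Mup5* (10.21 against 10.86 to 10.91) and *Cyp2j4* (8.12 against 8.63 to 8.66), and high for *Nqo1* (6.71 against 5.0 to 5.11) and *Dync1li1* (6.91 against 6.36 to 6.40). H/W rat 1 was high for *Cyp2c12* (7.17 against 6.16 to 6.32), H/W rat 3 was high for *Selenow* (6.34 against 4.64 to 4.75), and H/W rat 4 was low for *Pilra* (3.87 against 4.88 to 5.05) and *Igfbp4* (10.25 against 11.77 to 12.05). Line-C rat 1 was high for *Gne* (5.81 against 4.96 to 5.07), Line-C rat 3 for *Lox* (3.12 against 2.39 to 2.48), and Line-C rat 4 was low for *Uba6* (5.23 against 5.97 to 6.07) and *Tiparp* (5.06 against 5.62 to 5.65).

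Of the 263 called ProbeSets, 206 differed between the pairs H/W minus Line-C and Line-A minus L-E in a test of the difference itself (interaction contrast in limma, 1% FDR). Over all 7168 expressed ProbeSets 969 did (13.5%). The 263 had been chosen for 1 of the differences that enter this test, so that their count is a description and no support for a difference between the pairs. In both pairs a parent strain was scanned on other days than a line, and the part of scan day in this count was not tested.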

How the results depend on the processing

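The count of 263 called ProbeSets fell to 33 in the fit of the 8 arrays alone, 79 with scan day and 43 with chip lot as a random block, and lay between 142 and 362 with 1 rat left out. It was 598 at 5% FDR and 81 at 0.1%. The 29 called members of the gene lists became 11 with the 8 arrays alone, 17 with scan day, 11 with chip lot and 63 at 5% FDR. The 114 ProbeSets also called in Line-A minus L-E became 30 with scan day, 12 with chip lot, 172 with the expression limit set before the fit and 172 without H/W rats 3 and 4 (chosen after seeing the data), and lay between 65 (without H/W rat 1) and 184 (without H/W rat 4) with 1 rat left out. With the replicate number as a block 230 were called, 104 higher and 126 lower, although the numbers did not pair the rats (0 of 4 were closest to their own number). Array weights gave 38.2% higher among the called, and equal array medians 58.6%, against 50.2%. Robust variance estimates gave 244 calls, an intensity trend 263, further quantile normalization 253 and the limit before the fit 368. Of 75 called genes chosen by the naming rule, each read by 1 ProbeSet, 19 passed under all 20 alternatives, 56 did not under at least 1, and 0 changed sign. Genes named outside that rule are not in this count. The cause of these changes was not tested.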

Other observations

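Under the signal limit, 8 ProbeSets were called between H/W and Line-C. *Pik3r1*, a regulatory subunit of phosphoinositide 3-kinase (difference 1.95), and *Rcan2*, an inhibitor of calcineurin (1.48), were higher in H/W, and *Abcg8*, part of the sterol exporter of liver and gut, was lower (-1.61). The others were *Ldhb* (0.56), *Mob3a* (0.44), *Ccdc77* (0.33), *Jpt1* (-0.47) and *Lysmd4* (-0.83). *Rcan2* also had an expressed ProbeSet among the 263 called, with a difference of 1.76. It ran from 5.22 to 6.22 in H/W and from 3.69 to 4.04 in Line-C. That call was lost without H/W rat 1 or 3 or Line-C rat 1, 2 or 4 (limma, adjusted p from 0.0105 to 0.013).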
